A study of Homo sapiens with 12 samples.

Results

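Very wide early domains are stretches in which early replicating regions (ERRs) of all 4 conditions overlapped or touched so that their union reached 350 kb or more. ERRs of the autosomes were merged across the 4 deposited lists, and merged regions were kept when they held at least 1 region of each list and were at least 350 kb wide. Of 4886 merged autosomal regions, 2932 held a region of every list, and 324 of these were wide enough. No merged region of that width lacked a list. The members were thus chosen by their merged width and by the presence of each list. Coverage, edges and number of pieces are tied to this choice, and they are given below as a description, without a test. Reads per kb also went with width, as given below.

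Replication starts at many origins, and origins fire in a temporal order in which neighbouring origins tend to fire together as a domain. Early firing domains lie mostly in gene-rich, open chromatin. EdU is a thymidine analogue that is built into new DNA, and hydroxyurea slows forks by depleting nucleotides, so EdU-labelled DNA recovered after release from mitosis into both agents (EdU-HU-seq) comes from the vicinity of origins that fire early. CDK12 is a kinase that acts on elongating RNA polymerase II, and Myc is a transcription factor that drives cells into S phase.

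All 12 samples were U2OS cells, an established human osteosarcoma line, which expressed the MycER chimera, a Myc protein that is switched on by 4-hydroxytamoxifen (OHT). The 4 conditions, with 3 samples each, were a non-targeting hairpin (shNT), the same hairpin with OHT (shNT + OHT), a hairpin against CDK12 (shCDK12), and that hairpin with OHT (shCDK12 + OHT). Per the labels, cells of all conditions carried virally delivered hairpins that were switched on by doxycycline at 1 µg/mL, and the OHT conditions received 300 nM for 40 h. All were arrested for 8 h with 100 ng/mL nocodazole, collected by shake-off, and held for 24 h in 25 µM EdU with 2 mM hydroxyurea. The level of CDK12 was not analysed here, so the silencing is taken from the labels. Each condition was deposited as 1 list called on merged reads, so none of the differences between conditions has a replicate check. Coordinates are those of the lists (hg19, counted from 1). No annotation of that build was at hand, and genes inside the domains were not analysed here.

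The domains were few but made up a large part of the early replicating sequence. They were 6.63% of the merged regions by number and 32.9% by length, with 198 Mb in all. Their width ranged from 350 kb to 3260.4 kb, with a median of 517.4 kb, against 97.6 kb for the other 2608 merged regions found in all lists. There were 168 domains of at least 500 kb and 29 of at least 1000 kb. Just inside the limit lay a domain of 350 kb on chromosome 1 (33310001 to 33660000), 1 of 351.6 kb on chromosome 5 (131498401 to 131850000) and 1 of 352 kb on chromosome 18 (8767201 to 9119200). Just outside lay regions of 349.6 kb on chromosome 6 (155224001 to 155573600), 346.4 kb on chromosome 5 (176710401 to 177056800) and 344.4 kb on chromosome 20 (47210001 to 47554400). Reads per kb of these 6 regions in shNT ranged from 20.9 to 48.9 inside and from 25.7 to 50.9 outside the limit, so values on both sides of the limit overlapped.

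A large share of all called sequence and reads fell into the domains in every condition. Of the autosomal length covered by shNT, 39.9% lay in domains, and the share was 38.0% for shNT + OHT, 39.6% for shCDK12 and 35.03% for shCDK12 + OHT. The shares of reads were larger, with 50.03% for shNT, 50.6% for shNT + OHT, 48.8% for shCDK12 and 45.3% for shCDK12 + OHT. The list with both treatments thus had the lowest share by either measure, although its domains covered the most sequence (191 Mb, against 176 Mb in shNT, 185 Mb in shNT + OHT and 179 Mb in shCDK12).

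Most of the sequence of the domains was called early replicating in all 4 conditions. Of the 198 Mb, 83.4% was covered by all 4 lists, 6.94% by 3, 4.84% by 2 and 4.79% by 1. The stretches covered by a single list belonged mainly to shCDK12 + OHT, with 7.49 Mb, against 0.953 Mb for shNT, 0.812 Mb for shNT + OHT and 0.246 Mb for shCDK12. Conversely, 6.88 Mb was missing only from shNT, 4.06 Mb only from shCDK12, 2.20 Mb only from shCDK12 + OHT and 0.607 Mb only from shNT + OHT. Per domain, the core common to all lists had a median of 86.4% of the width (binomial 95% interval of the median over domains 84.4 to 88.1). The core reached 90% or more in 128 domains and stayed under 50% in 14.

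**Figure D1:**
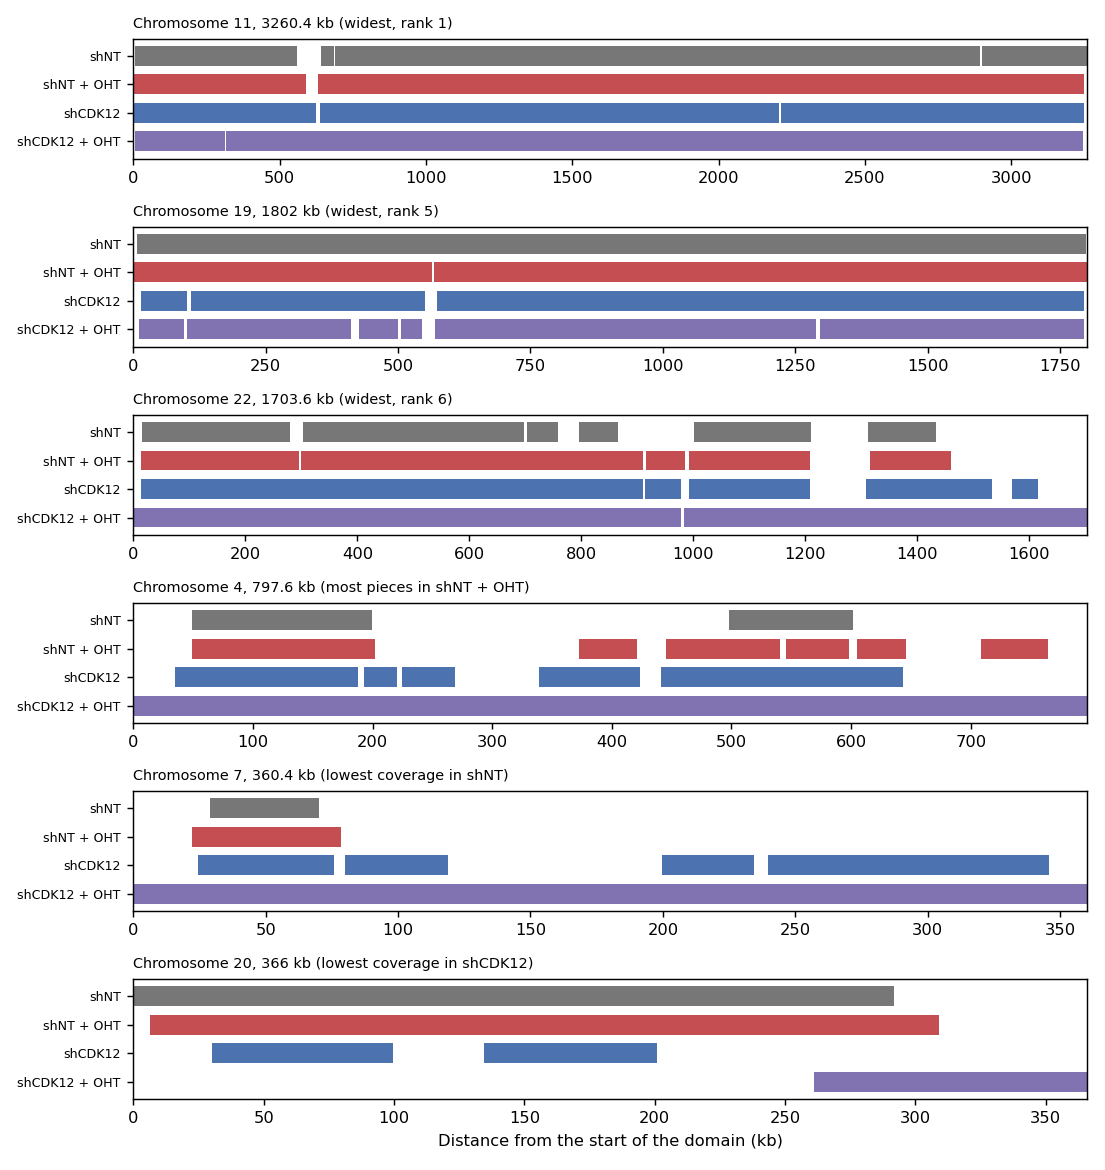
Pieces of 6 domains in the 4 lists, drawn as distance from the start of each domain (kb), with a bar for every called region and a row for each condition. The chromosome 11 domain (3260.4 kb) was nearly filled by every list, whereas the domains of chromosomes 4 and 7 were filled without a gap only in shCDK12 + OHT, and the chromosome 20 domain had no base common to all lists.

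The widest domain spanned 3260.4 kb on chromosome 11 (63651601 to 66912000). Its coverage was 96.9% for shNT, 98.4% for shNT + OHT, 99.1% for shCDK12 and 99.2% for shCDK12 + OHT. It was cut into 4 pieces for shNT, 2 for shNT + OHT, 3 for shCDK12 and 2 for shCDK12 + OHT. All lists thus filled it nearly to the edges, and each had a break in the first 700 kb. The shNT list also had a poor piece of 42 kb there with 13.3 reads per kb, next to pieces with 67.4 and 82.0 reads per kb.

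Next in width were a domain of 1888.4 kb on chromosome 22 (38268401 to 40156800), followed by 3 domains on chromosome 19, of 1854.4 kb (48667601 to 50522000), 1828.4 kb (364801 to 2193200) and 1802 kb (45054001 to 46856000). Coverage of these 4 domains was at least 94.9% in every list. The domain at 45054001 was an exception in its number of pieces: it was whole for shNT, in 2 pieces for shNT + OHT, in 3 for shCDK12 and in 6 for shCDK12 + OHT, the highest number of pieces in that list. Its outer pieces in shCDK12 + OHT had 43.5 and 56.7 reads per kb, and the piece of 720 kb had 90.3.

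The sixth widest domain, on chromosome 22 (24772001 to 26475600, 1703.6 kb), was of another kind. Its coverage went from 65.5% for shNT to 77.7% for shNT + OHT, 84.8% for shCDK12 and 99.7% for shCDK12 + OHT, and it was in 6, 5, 5 and 2 pieces. Here the list with both treatments joined what were separate ERRs in the others. A neighbouring domain on the same chromosome (26665601 to 28247600, 1582 kb) had 92.3%, 96.2%, 96.8% and 99.2% in the same order. The remaining domains of the 10 widest lay on chromosome 22 (45573201 to 47194000, 1620.8 kb), chromosome 8 (28884401 to 30348800, 1464.4 kb) and chromosome 16 (267201 to 1674800, 1407.6 kb).

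Each list's coverage of the domains was high, and higher in both lists with OHT. The median was 92.9% for shNT (binomial 95% interval over domains 91.3 to 94.3), 96.3% for shNT + OHT (95.5 to 97.3), 92.2% for shCDK12 (90.6 to 93.5) and 97.6% for shCDK12 + OHT (97.2 to 97.9). At least 95% of the width was covered in 132 domains for shNT, 185 for shNT + OHT, 115 for shCDK12 and 260 for shCDK12 + OHT. Under 75% was covered in 51, 21, 31 and 3 domains, respectively. These intervals are for the median over domains of 1 list, and they give neither the spread of the domains nor that between cultures. The lower and upper quartiles of the domains were 82.8% and 98.0% for shNT and 89.9% and 98.8% for shNT + OHT. They were 86.0% and 96.5% for shCDK12, and 95.6% and 99.1% for shCDK12 + OHT. Since each list helped to choose the domains, coverage was also taken over domains chosen from the other 3 lists alone, and the medians were 92.8%, 96.8%, 92.3% and 97.6%. These come from 4 different sets of domains, of 315, 317, 323 and 260, and the last leaves out domains that the other lists covered thinly. In the 260 domains that each list covered to at least 75%, the order of the lists with OHT turned, with a median of 97.6% for shNT + OHT and 97.4% for shCDK12 + OHT.

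**Figure D2:**
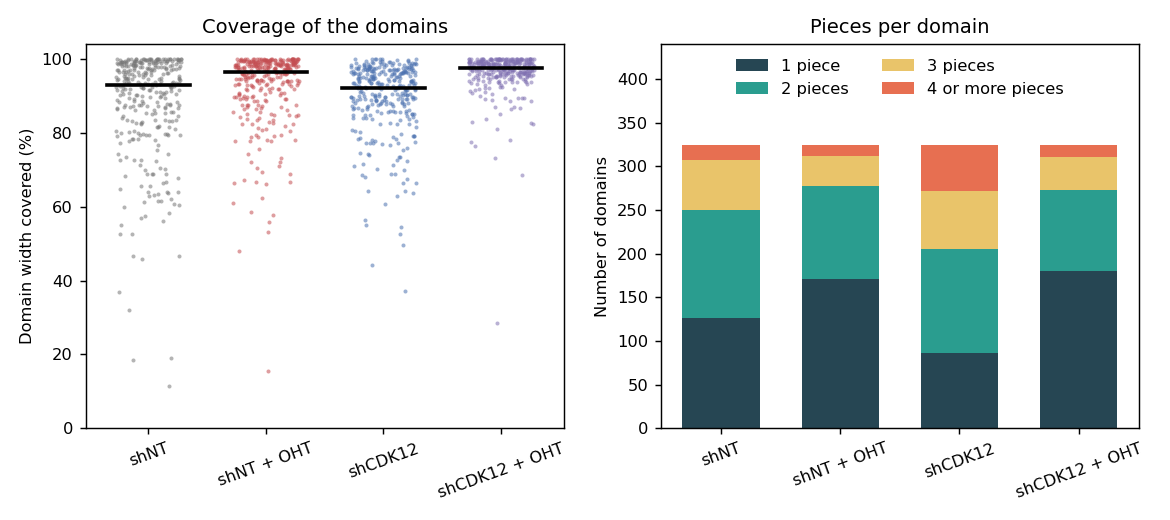
Left, share of each domain's width (%) covered by each list, with a point for every domain and a bar at the median; right, number of domains in 1, 2, 3, and 4 or more pieces. Medians were 92.9% for shNT, 96.3% for shNT + OHT, 92.2% for shCDK12 and 97.6% for shCDK12 + OHT, and shCDK12 had the most domains in 4 or more pieces (52).

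Membership leaned on shCDK12 + OHT more than on the other lists. Without shNT, merging of the remaining lists gave 315 domains, without shNT + OHT 317, without shCDK12 323 and without shCDK12 + OHT 260. Without shCDK12 + OHT, 76 of the 324 domains no longer held a merged stretch of 350 kb, against 12 without shNT, 14 without shNT + OHT and 3 without shCDK12. These 76 domains reached the width limit through regions of the doubly treated list.

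Some domains were thinly covered by the other lists and filled by shCDK12 + OHT. On chromosome 7 (3909601 to 4270000, 360.4 kb) coverage was 11.4% for shNT and 15.6% for shNT + OHT, both with 1 piece, then 64.2% in 4 pieces for shCDK12 and 100% in 1 piece for shCDK12 + OHT. On chromosome 1 (226766001 to 227135200, 369.2 kb) it was 18.4% for shNT, 62.4% for shNT + OHT, 54.4% for shCDK12 and 98.9% for shCDK12 + OHT. On chromosome 4 (40164401 to 40962000, 797.6 kb) it was 31.9%, 56.0%, 64.1% and 100%, in 2, 6, 5 and 1 pieces. In all 3 domains the coverage was lowest in shNT and complete or nearly so in shCDK12 + OHT. A domain on chromosome 20 (56515201 to 56881200, 366 kb) went the other way, with 79.7% for shNT, 82.7% for shNT + OHT, 37.2% for shCDK12 and 28.6% for shCDK12 + OHT. The region of shCDK12 + OHT there began 261.2 kb into the domain, past the last region of shCDK12, so no base was shared by all 4 lists, and the domain was held together by the regions of the shNT lists. It was the only such case among the 324.

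Domains were most often broken in shCDK12, and less often in both lists with OHT than in those without. They were in 2 or more pieces in 198 of 324 cases for shNT (61.1%, Wilson 95% interval 55.7 to 66.3), in 153 for shNT + OHT (47.2%, 41.9 to 52.7), in 238 for shCDK12 (73.5%, 68.4 to 78.0) and in 144 for shCDK12 + OHT (44.4%, 39.1 to 49.9). Among all 2932 merged regions found in every list, most of them far narrower, the shares were 14.5%, 13.7%, 22.8% and 11.7%. In the 769 regions of 150 to 350 kb, the nearest class in width, they were 23.9%, 22.9%, 39.3% and 18.5%. Thus shCDK12 stood highest in both sets as well. In total, the domains held 621 pieces for shNT, 541 for shNT + OHT, 758 for shCDK12 and 537 for shCDK12 + OHT. The highest numbers of pieces were 6 for shNT (chromosome 1, 23652801 to 24978000), 6 for shNT + OHT (the chromosome 4 domain above), 7 for shCDK12 (chromosome 2, 25030401 to 25969600) and 6 for shCDK12 + OHT. Only 50 domains were in 1 piece in every list, and 63 were broken in every list. The smallest gap in the lists was 4400 bp. When only gaps over 10 kb were counted, the shares were 41.7% for shNT, 33.0% for shNT + OHT, 52.5% for shCDK12 and 25.3% for shCDK12 + OHT. Which of the lists with OHT had fewer broken domains changed with the choice of domains: at 500 kb and wider the share was 53.6% for shNT + OHT and 54.2% for shCDK12 + OHT. In domains covered to at least 75% by each list it was 39.2% and 46.9%, and with regions up to 10 kb apart merged 64.9% and 67.3%. Reads inside autosomal regions were fewest in shCDK12 (13220717) and most in shNT + OHT (49994993). Differences between lists in breaks, gaps and coverage therefore cannot be told apart from differences in depth.

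Gaps inside the domains were short, and by the rule the other lists had to cover them. The median gap was 16.8 kb for shNT (297 gaps), 13.2 kb for shNT + OHT (217), 13.0 kb for shCDK12 (434) and 8.8 kb for shCDK12 + OHT (213). The widest was 298 kb for shNT, 175.6 kb for shNT + OHT, 160.4 kb for shCDK12 and 82.4 kb for shCDK12 + OHT. A region of shCDK12 + OHT spanned 82.5% of the shNT gaps, 83.9% of the shNT + OHT gaps and 72.4% of the shCDK12 gaps. Regions of shCDK12 spanned 36.0%, 22.6% and 44.6% of the gaps of shNT, shNT + OHT and shCDK12 + OHT. These shares are over all 324 domains, of which 76 reached the width limit only through regions of shCDK12 + OHT. The high shares of that list are thus tied to the choice, and they were not taken again without these 76. Gaps that no other single list spanned numbered 14 for shNT, 7 for shNT + OHT, 18 for shCDK12 and 7 for shCDK12 + OHT. By contrast, all 3 other lists spanned 107 of the shCDK12 gaps, 85 of the shNT gaps, 77 of the shCDK12 + OHT gaps and 18 of the shNT + OHT gaps. The low number of gaps that no other single list spanned follows largely from the rule and is not a separate result.

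Where a domain was broken, the pieces differed in read density. In shNT the widest piece had a median of 1.39 times the reads per kb of the remaining pieces together (median log2 ratio 0.47, binomial 95% interval 0.30 to 0.64), and it was the denser in 145 of 198 broken domains. The ratio was 1.30 in shNT + OHT (114 of 153), 1.29 in shCDK12 (179 of 238) and 1.10 in shCDK12 + OHT (83 of 144). In the last list the interval of the log2 ratio, -0.01 to 0.27, included 0. The widest piece made up a median of 60.5% of the covered length for shNT, 66.5% for shNT + OHT, 59.8% for shCDK12 and 64.8% for shCDK12 + OHT.

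The outer edges of the domains lay close together in the 4 lists. The median distance from a domain's edge to the outermost region of a list was 3.0 kb for shNT (binomial 95% interval over 648 edges 2.4 to 3.6), 4.0 kb for shNT + OHT (3.2 to 4.4), 6.4 kb for shCDK12 (5.6 to 7.6) and 2.4 kb for shCDK12 + OHT (1.6 to 3.2). With windows of 400 bp these medians are a few windows. The edge was set by shCDK12 + OHT alone in 230 cases, by shNT alone in 178, by shNT + OHT alone in 125 and by shCDK12 alone in 63, and all 4 lists ended at the same base in 10. Offsets over 50 kb were found at 76 edges for shNT, 34 for shNT + OHT, 44 for shCDK12 and 7 for shCDK12 + OHT. The merged edge is that of the list reaching farthest, and 76 domains reached the width limit only through regions of shCDK12 + OHT. The low count of that list is thus tied to the choice. Offsets were not taken again over domains chosen from the other lists.

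The read density of the domains was above that of the other regions in each list. Reads per kb of covered sequence had a median of 41.4 for shNT (binomial 95% interval over domains 38.3 to 43.9), 114 for shNT + OHT (106 to 122), 31.2 for shCDK12 (29.4 to 33.0) and 61.3 for shCDK12 + OHT (57.4 to 64.5). Over the other 2608 regions found in all lists the medians were 22.997, 62.5, 19.2 and 38.1, so domains had 1.80, 1.82, 1.62 and 1.61 times as many reads per kb. Against the 769 regions of 150 to 350 kb, the nearest class in width, the factors were 1.49, 1.51, 1.42 and 1.40. Domains were chosen by width, and density went with width, so it is not independent of the choice. In shNT the median was 23.4 under 50 kb, 20.7 from 50 to 150 kb and 27.8 from 150 to 350 kb. The exact Poisson 95% interval of the reads of a domain had a half-width of at most 8.82% and a median of 1.204%. It covers counting error only and not the spread between domains. The quartiles of the domains were 29.1 and 54.7 reads per kb for shNT and 83.4 and 158 for shNT + OHT. They were 23.15 and 40.9 for shCDK12, and 46.7 and 76.6 for shCDK12 + OHT.

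Reads are sums over merged replicates and were not scaled to depth, so the order of the 4 medians cannot be told apart from differences in depth. Reads inside autosomal regions numbered 17261176 for shNT, 49994993 for shNT + OHT, 13220717 for shCDK12 and 28573223 for shCDK12 + OHT. Scaled to 1000000 reads inside autosomal regions of the same list, the domain medians were 2.40 reads per kb for shNT, 2.28 for shNT + OHT, 2.36 for shCDK12 and 2.15 for shCDK12 + OHT. On that scale shNT was highest and shCDK12 + OHT lowest, and the range over the lists was narrow. Total library sizes were not used here.

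**Figure D3:**
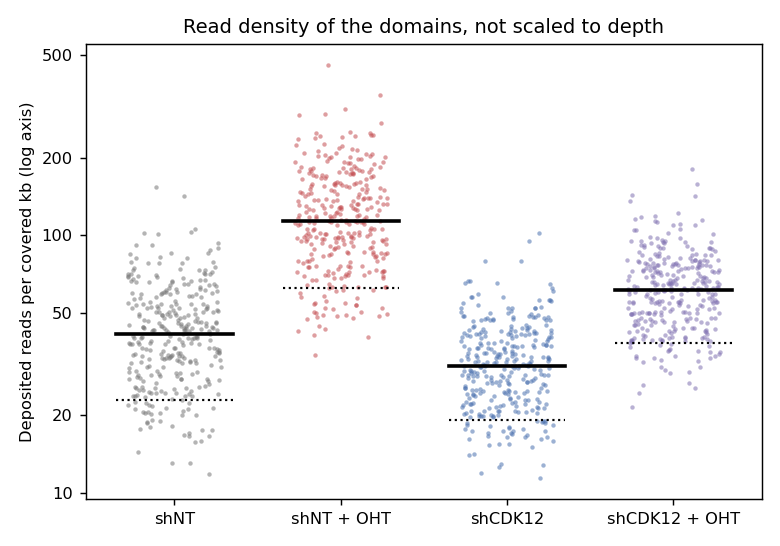
Deposited reads per covered kb of the 324 domains in each list, on a log axis and not scaled to depth, with a point for every domain, a solid bar at the median of the domains and a dotted bar at the median of the other 2608 regions found in all lists. The domain medians were 41.4, 114, 31.2 and 61.3, above the dotted bar in every list.

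Domains kept much of their order of density across conditions. Across the 324 domains, log2 reads per kb of shNT and shNT + OHT had Pearson's r = 0.98 and Spearman's rho = 0.97, shCDK12 and shCDK12 + OHT r = 0.95 and rho = 0.95, and the least alike lists, shNT and shCDK12 + OHT, r = 0.84 and rho = 0.84. The domains of different lists share their sequence, mappability and copy number, and these values are a description. Of the 20 densest domains of each list, 12 were the same in all 4. The densest domain was the same in every list, on chromosome 7 (2402801 to 2790800, 388 kb), with 154 reads per kb for shNT, 460 for shNT + OHT, 102.2 for shCDK12 and 181 for shCDK12 + OHT. It was in 1 piece in each list and covered to at least 96.4%. The sparsest was the chromosome 1 domain at 226766001 in both shNT lists (11.8 and 34.2 reads per kb), and the chromosome 20 domain at 56515201 in both shCDK12 lists (11.4 and 21.5). Wider domains tended to be denser, with r between width and log2 reads per kb from 0.33 in shNT to 0.35 in shCDK12 and rho from 0.32 to 0.34. The widest domain ranked between 19 and 24 in density in the 4 lists.

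MycER activation was compared first in cells with the non-targeting hairpin. Reads per kb were higher with OHT in 324 of 324 domains, with a median log2 ratio of 1.503 (binomial 95% interval over domains 1.49 to 1.52, a factor of 2.84). All 324 passed 2-fold, but so did 96.5% of all regions found in every list, and the total of reads inside autosomal regions differed by a log2 ratio of 1.53, so the difference was as large across the list as in the domains. At least 2-fold lower were 0 domains (0.0682% of all regions). Relative to the other regions, domains were higher by 0.06. Against the ratio of the whole lists' reads they differed by -0.03, and against that of the whole lists' reads per kb by 0.11. Coverage was higher with OHT in 236 domains and lower in 84, with a median difference of 2.30 percentage points. A gain of at least 10 points was seen in 62 domains (19.1%), near the 20.1% of all regions. A loss of that size was seen in 3 (0.926%), against 12.5% of all regions. Pieces were fewer in 105 domains (32.4%, against 6.96% of all regions) and more in 38 (11.7%, against 5.76%). Here and in the comparisons below, all regions are mostly far narrower than the domains. Shares of coverage gains and losses, of pieces and of breaks are therefore not matched in width. A change of 10 points is a longer stretch in a wide domain than in a narrow region. Of 198 domains broken in shNT, 67 were whole with OHT (33.8%, against 38% of all regions broken in shNT), and 22 of 126 whole ones were broken (17.5%, against 5.55%). The lowest ratio, 1.02, was found on chromosome 11 (69139601 to 69724800, 585.2 kb), where reads per kb went from 50.5 to 102.1, and the highest, 1.90, in the thinly covered chromosome 7 domain at 3909601.

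In silenced cells the same comparison gave a median log2 ratio of 0.94 (0.92 to 0.97), with higher reads per kb in 324 of 324 domains. At least 2-fold higher were 127 domains (39.2%), against 47.4% of all regions, and 0 were 2-fold lower (0.443% of all regions). The totals differed by 1.11. The median of the domains less that of the other regions was -0.05, but it was 0.27 against regions at most 2 kb wide and 0.10 against the ratio of the whole lists' reads per kb. Coverage was higher in 252 domains and lower in 71. At least 10 points were gained in 85 (26.2%), against 41% of all regions, and lost in 1 (0.309%), against 7.44%. Pieces were fewer in 158 domains (48.8%, against 16.1% of all regions) and more in 34 (10.5%, against 3.55%). Of 238 domains broken in shCDK12, 111 were whole with OHT (46.6%, against 60.9% of all regions broken in shCDK12), and 17 of 86 whole ones were broken (19.8%, against 3.58%). The largest gain of coverage, 55.9 points, was on chromosome 2 (202638801 to 203010000, 371.2 kb), with 44.1% in shCDK12 and 100% in shCDK12 + OHT. The largest loss, 13.6 points, was on chromosome 11 (86129601 to 86556000, 426.4 kb), from 86.7% to 73.1%.

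Silencing of CDK12 without OHT went with fewer reads per kb in 307 of 324 domains, with a median log2 ratio of -0.38 (-0.42 to -0.34). The totals of the lists differed by -0.38 as well. Over the other regions the median was -0.26, so the domains differed from them by -0.12. Against the ratio of the whole lists' reads per kb, -0.42, the sign turned and the difference was 0.04. At least 2-fold lower were 5 domains (1.54%), against 2.8% of all regions, and 0 were 2-fold higher (0.375% of all regions). The lowest ratio, -1.19, was on chromosome 12 (65858401 to 66214400, 356 kb), with 64.9 reads per kb for shNT, 174 for shNT + OHT, 28.4 for shCDK12 and 45.2 for shCDK12 + OHT. In that domain both silenced lists were lower than the matching shNT list by more than 2-fold, and where 1 region of shNT filled it completely, both silenced lists had 3 pieces. The highest ratio, 0.25, was also on chromosome 12 (121332801 to 121758000, 425.2 kb), with 16.0 reads per kb in shNT and 19.0 in shCDK12. Pieces were more numerous in 130 domains (40.1%, against 14.4% of all regions) and fewer in 41 (12.7%, against 3.44%). Of the 126 domains that were whole in shNT, 62 were broken in shCDK12 (49.2%, against 12.8% of all regions whole in shNT, mostly far narrower). Of the 198 broken in shNT, 22 were whole in shCDK12 (11.1%, against 18.3%). Coverage hardly differed at the median, -0.36 points (-1.06 to 0.36), being higher in 148 domains and lower in 174. It was higher by at least 10 points in 45 domains (13.9%, against 16.8% of all regions) and lower by as much in 20 (6.17%, against 27.8%).

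With active MycER, silencing went with fewer reads per kb in 324 of 324 domains, and the median log2 ratio was -0.93 (-0.97 to -0.89), a factor of 0.526. The totals differed by -0.81. At least 2-fold lower were 126 domains (38.9%), against 23.7% of all regions, and 0 were 2-fold higher (0% of all regions). The domains differed from the median of the other regions by -0.24, and from that of regions of 150 to 350 kb by -0.15. Against the ratio of the whole lists' reads per kb, -0.97, the sign turned and the difference was 0.04. The lowest ratio, -1.98, was on chromosome 14 (68664801 to 69358000, 693.2 kb), with 93.0 reads per kb for shNT, 240 for shNT + OHT, 41.3 for shCDK12 and 61.0 for shCDK12 + OHT. It was nonetheless covered to 100% in shCDK12 + OHT, against 88.5% in shNT + OHT, so lower density and wider coverage occurred together. The highest ratio, -0.17, was on chromosome 15 (66197201 to 66700400, 503.2 kb), with 61.4 reads per kb in shNT + OHT and 54.5 in shCDK12 + OHT. Coverage was higher with silencing in 186 domains and lower in 138. It was higher by at least 10 points in 67 (20.7%, against 32.1% of all regions) and lower by as much in 15 (4.63%, against 17.2%). Pieces were fewer in 90 domains (27.8%, against 9.62%) and more in 85 (26.2%, against 7.57%), so that breaks were gained and lost in nearly equal numbers. Of 153 domains broken in shNT + OHT, 73 were whole with silencing (47.7%, against 63.8% of all regions broken there), and 64 of 171 whole ones were broken (37.4%, against 7.75%).

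**Figure D4:**
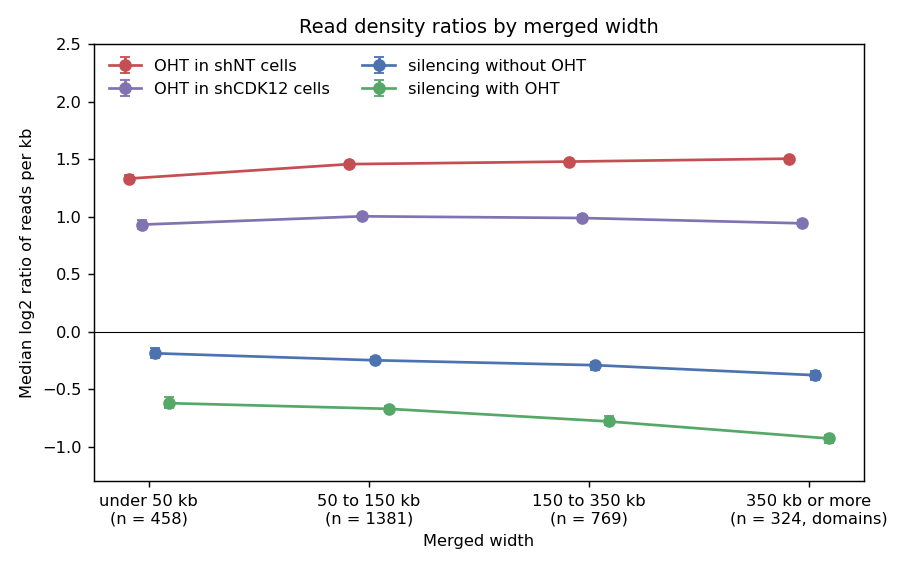
Median log2 ratio of reads per kb by merged width, for regions found in all lists, in the 4 comparisons that differ in 1 factor; bars are binomial 95% intervals of the median over regions. The lines of silencing fell from the narrowest class to the domains, from -0.19 to -0.38 without OHT and from -0.62 to -0.93 with OHT, while OHT in shNT cells went from 1.33 to 1.503.

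The ratio of silencing was graded over 4 classes of width. Without OHT the median log2 ratio was -0.19 in regions under 50 kb, -0.25 from 50 to 150 kb, -0.29 from 150 to 350 kb and -0.38 in the domains. With OHT it was -0.62, -0.67, -0.78 and -0.93. The 54 narrowest regions, at most 2 kb in every list, did not follow this order with OHT, with -0.76, and had -0.22 without. The ratio of OHT in shNT cells also differed by width, from 1.33 under 50 kb to 1.503 in the domains, and that in silenced cells lay between 0.93 and 1.003 in all classes. Silencing was graded with density as well. So that no list stood on both sides, domains were ordered by the reads per kb of a list outside the comparison and divided into 4 groups of 81. The groups are still not independent of the ratios, because the ordering list was unequally close to the lists compared. For example, shNT had r = 0.98 with shNT + OHT and 0.84 with shCDK12 + OHT across the 324 domains. From the sparsest to the densest group by shNT, the median ratio of silencing with OHT was -0.62, -0.87, -0.98 and -1.14. Groups by shNT + OHT gave -0.22, -0.33, -0.38 and -0.50 for silencing without OHT. Groups by shCDK12 gave between 1.48 and 1.52 for OHT in shNT cells, which hardly moved. OHT in silenced cells, by shNT, gave 1.09, 0.99, 0.91 and 0.86. In these groups, as a description only, dense domains had the deepest deficit in the silenced lists and the smallest gain with OHT in silenced cells. Across the 324 domains, silencing with OHT and shNT density had r = -0.72 and rho = -0.72, and over the 769 regions of 150 to 350 kb r = -0.68 and rho = -0.69.

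Across the domains, the log2 ratios of silencing without and with OHT went together. These comparisons share no list, and their log2 ratios had r = 0.85 and rho = 0.84 across the 324 domains, against 0.84 and 0.82 across the regions of 150 to 350 kb. The ratios of OHT in the 2 backgrounds were less alike, with r = 0.52 and rho = 0.50. Domains are not independent replicates, and all points of a list share its depth and its calling, so these values carry no test.

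Every autosome held at least 1 domain, but the domains were unevenly placed. Chromosome 1 had 44, chromosome 17 had 38, chromosome 19 had 25, chromosome 2 had 22 and chromosome 12 had 21, together 46.3% of all. Chromosomes 13 and 21 had 1 each and chromosome 18 had 2. Relative to the span that the lists cover, chromosome 22 was the richest with 40.9% of its span in domains, followed by chromosome 19 with 33.9% and chromosome 17 with 28.1%. At the low end were chromosome 13 with 0.413%, chromosome 21 with 1.03%, chromosome 4 with 1.14%, chromosome 5 with 1.28% and chromosome 18 with 1.43%. Of the merged length of chromosome 19, 69.9% was in domains, compared with 60.1% on chromosome 22, 55.8% on chromosome 17 and 6.19% on chromosome 13.

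**Figure D5:**
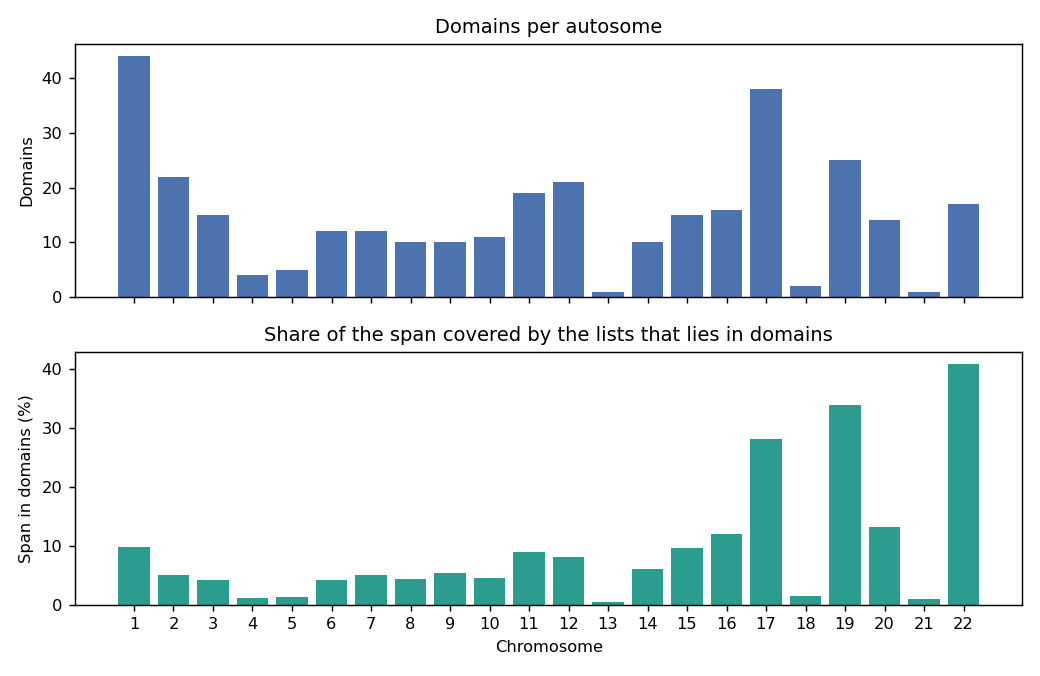
Number of domains on each autosome (top) and share of the span covered by the lists that lies in domains (bottom, %). Chromosome 1 had the most domains (44), and chromosome 22 the highest share of its span (40.9%).

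Chromosomes 19 and 22 were unlike in their breaks. The 25 domains of chromosome 19 had a mean of 1.72 pieces for shNT, 1.36 for shNT + OHT, 2.12 for shCDK12 and 2.08 for shCDK12 + OHT, and a median coverage of 97.2%, 99.0%, 94.6% and 95.8%. On chromosome 22, with 17 domains, the mean was 2.18, 2.29, 2.47 and 1.47 pieces, and the median coverage 87.1%, 94.1%, 89.3% and 99.2%. The doubly treated list was thus the most complete on chromosome 22 but not on chromosome 19, where shNT + OHT was. These are descriptions, and the difference was not tested. With active MycER the median ratio of silencing was below 0 on all 22 autosomes, from -1.07 on chromosome 19 to -0.81 on chromosome 15 among the 17 autosomes with at least 10 domains. Without OHT the range was -0.51 on chromosome 11 to -0.24 on chromosome 22.

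Domains lay in runs. With a distance of at most 500 kb between neighbours, 188 domains formed 72 runs of 2 or more, and 136 stood alone. The longest run had 9 domains on chromosome 17 (72700401 to 80498000), of which 6.39 Mb of 7.80 Mb was domain sequence. Runs of 6 lay on chromosome 17 (39608001 to 44110800, 3.97 Mb of 4.50 Mb) and at the start of chromosome 19 (364801 to 5591600, 5.14 Mb of 5.23 Mb). A run of 5 was on chromosome 6 (41254401 to 44364000). Within the run of 9, density varied: the domain at 79758801 to 80498000 had 103 reads per kb for shNT, 309 for shNT + OHT, 79.7 for shCDK12 and 144 for shCDK12 + OHT, whereas that at 74766401 to 75148400 had 35.4, 101, 33.0 and 60.9. Both were covered to at least 96.3% in every list. In the chromosome 19 run the domain farthest from the chromosome's start (4962401 to 5591600, 629.2 kb) was the sparsest, with 18.8, 54.6, 20.7 and 35.3 reads per kb, and its coverage was 79.8%, 91.7%, 56.4% and 96.5%. Domains of 1 run thus differed in density by more than 2-fold in the same list.

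The gap to the nearest merged region of any kind was short, with a median of 22.4 kb, and under 20 kb for 154 domains. Many domains were thus separated from their neighbours by no more than the gaps found inside domains. Within 5 Mb of an end of the covered span lay 50 domains (15.4%), against 294 of the 2608 other regions (11.3%). Distance to the nearer end and log2 reads per kb were weakly related across the 324 domains, with r from -0.14 for shNT + OHT to -0.09 for shCDK12 + OHT, and rho from -0.04 to -0.01 over the lists.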

How the data were processed

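EdU-HU-seq regions of U2OS-MycER cells came from 4 lists, 1 per condition, called after the authors merged the reads of 3 samples. The submitters' processing notes name BWA 0.6.2, SAMtools, SICER and the builds hg19 and mm10, with no roles. Gap and threshold settings, a control library and duplicate removal are not given in the sources used here. Region limits lay on a 400 bp grid, and regions passed the hg38 ends on 14 of 24 chromosomes, so hg19 was taken. The authors deposited for each region a whole read count, which pools the replicates and is unscaled. They also deposited a score on their own scale, which served only for 1 alternative. No file holds values of single samples.

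Coverage is the share of a domain's merged width in regions of a list, a piece is 1 region of a list, and reads per kb are reads over covered kb. No test between conditions was made, since none has a replicate. Medians carry distribution-free binomial 95% intervals and shares Wilson 95% intervals, both over domains. Calls were set against all 2932 regions found in every list, which were not matched to the domains in width. The domains named are the 10 widest, the 3 nearest the limit on either side, and the extremes of coverage, pieces, reads per kb, their log2 ratios and coverage differences. Domains named within runs were chosen after their values were seen. The members, measures and alternatives were chosen with earlier results of these data known. The procedure was tested on simulated data, where all 200 planted domains were recovered. Each planted domain had the same outer edges in all lists and was unbroken in 1 of them. Domains joined by staggered regions were therefore not simulated, and the recovery checks the counting only. Alternatives were other width limits, merging distances, scores, chromosomes, lists and denominators. Work was done in Python (3.11.15) with pandas (2.3.3), numpy (2.4.6), scipy (1.17.1) and, for plots, matplotlib (3.10.9).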

Additional observations from a re-analysis of the deposited data

Results flagged for a closer look

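Silencing of CDK12 went with opposite directions of 3 values of the domains in cells without and with OHT. The number of pieces was higher by 137 without OHT and changed by -4 with OHT. The number of domains in 2 or more pieces was higher by 40 without OHT and changed by -9 with OHT. The median coverage of shCDK12 less that of shNT was -0.67 percentage points, and that of shCDK12 + OHT less that of shNT + OHT was 1.35 points. The direction with OHT was not stable. The share of domains in 2 or more pieces was 44.4% for shCDK12 + OHT and 47.2% for shNT + OHT, but 54.2% and 53.6% at a minimum of 500 kb, 46.9% and 39.2% in domains covered to at least 75% by each list, and 67.3% and 64.9% with regions up to 10 kb apart merged. In the domains covered to at least 75%, median coverage was 97.4% for shCDK12 + OHT and 97.6% for shNT + OHT. The net of -4 pieces came from 90 domains with fewer and 85 with more. With 1 merged list per condition these differences between the backgrounds were not tested.

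Chromosome X, which the rule leaves out, held 2 merged regions that met its other conditions. Together they spanned 0.974 Mb, and the wider was 616 kb.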

How the results depend on the processing

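No paired analysis was possible because each condition was deposited as 1 list merged from its 3 samples. For the same reason no replicate could be left out. Of 164 alternative values, 106 moved by less than the interval of the value or, for counts of domains, stayed within 1.5 times, 57 moved further and 1 changed sign. The sign change was OHT in silenced cells, where the log2 difference of domains from other regions became 0.27 against regions at most 2 kb wide. Against these narrow regions it was 0.32 for OHT in shNT cells, -0.16 for silencing without OHT and -0.17 for silencing with OHT. Over domains in 1 piece in both lists it was 0.093 for OHT in shNT cells, -0.17 for silencing without OHT and -0.28 with OHT. With reads over the merged width it was 0.10 and -0.11 for OHT in shNT and silenced cells, and -0.069 and -0.28 for silencing without and with OHT. With regions up to 10 kb apart merged, silencing with OHT gave -0.20. The ratios of the whole lists were not among the 164 alternatives, and against them the sign turned more often. Against the lists' reads per kb the difference was 0.10 for OHT in silenced cells, and 0.04 for silencing both without and with OHT. Against the lists' reads it was -0.03 for OHT in shNT cells and 0.007 for silencing without OHT.

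At a minimum of 500 kb, 168 domains remained. Their shares in 2 or more pieces were 69.0% (shNT), 53.6% (shNT + OHT) and 54.2% (shCDK12 + OHT), their median reads per kb were 46.5, 130.5, 34.3 and 66.1 in the order of the conditions, and median coverage by shCDK12 was 93.7%. Merging across up to 10 kb gave median coverage of 90.1%, 94.0%, 89.5% and 96.6%, shares of broken domains of 72.03%, 64.9%, 84.4% and 67.3%, and 105.4, 28.9 and 57.3 reads per kb for shNT + OHT, shCDK12 and shCDK12 + OHT. Domains covered to at least 75% by each list, a choice made after seeing the data, numbered 260. They had coverage of 95.03%, 97.6%, 94.0% and 97.4%, reads per kb of 45.1, 128.1, 33.9 and 66.3, and 39.2% broken for shNT + OHT against 46.9% for shCDK12 + OHT, so both orders of the lists with OHT turned. Between a list's own outermost regions, median coverage was 98.8%, 100%, 97.5% and 100%. With only gaps over 10 kb counted, 41.7%, 33.0%, 52.5% and 25.3% of domains were broken. Reads over the merged width were 37.5 per kb for shNT and 28.2 for shCDK12. Reads per covered kb, scaled to 1000000 reads in autosomal regions, were 2.40, 2.28, 2.36 and 2.15. Shares by reads in place of length were 50.03%, 50.6%, 48.8% and 45.3%. The cause of these shifts was not tested. Leaving out chromosome 1, adding chromosome X, a common minimum score and a limit of 300 kb moved none of the values that far.

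Called length and reads inside regions are not the depth of a library, and total depths were not used here. With 1 list per condition, differences between conditions and between libraries cannot be told apart. Mappability, copy number of the cell line and unassembled sequence could not be examined without a genome of the same build.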
